A study of Mus musculus with 15 samples.

Results

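The genes described here are 35 collagens and other extracellular matrix proteins, taken by name as a group, of which 32 were measured among the 19938 genes that the platform's gene table names by a single symbol. Fbn1 and Efemp2 were not listed there under their symbols, and Loxl2 stood only on a probe set that carries more than 1 symbol. The members fall by role into 6 fibrillar collagens, 4 collagens of basement membranes and their surroundings, 7 beaded, network-forming and fibril-associated collagens, 3 small leucine-rich proteoglycans, 3 measured proteins of fibronectin and elastic fibres, 2 measured lysyl oxidases and 7 matricellular proteins. A gene with several probe sets is represented by its brightest probe set, by mean over the 15 arrays.

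Collagen is made as a long procollagen chain that winds into a triple helix with its partner chains, is secreted and trimmed, and then assembles into fibrils or networks that lysyl oxidases cross-link. Small leucine-rich proteoglycans coat the fibrils and set their spacing, whereas matricellular proteins such as thrombospondins, tenascin and periostin sit in the matrix and act on cells more than they bear load. In liver, fibrillar collagen comes mainly from hepatic stellate cells and portal fibroblasts, and its accumulation is the hallmark of fibrosis.

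Total RNA from whole livers of C57BL/6 mice aged 8 weeks, all labelled male, was hybridised to Affymetrix arrays that read along the whole transcript, a separate array for each of 3 mice in 5 groups. WT mice carried floxed NEMO alleles and no recombinase is named for them. Jnk1 KO and Jnk2 KO mice lacked Jnk1 (Mapk8) or Jnk2 (Mapk9) in every cell. The double knockouts, NEMO/Jnk1 DKO and NEMO/Jnk2 DKO, lacked the same kinase globally and, in addition, NEMO (Ikbkg, the regulatory subunit of the IκB kinase complex) in hepatocytes, through loxP sites and a Cre transgene under the albumin (Alb) promoter. The mice had standard chow and no treatment. No group with deletion of NEMO alone was analysed here, so every effect of NEMO loss was measured on a Jnk1-null or Jnk2-null background, and the kinase was missing in matrix-producing cells as well as in hepatocytes. Values are the authors' deposited log2 expression values after RMA, so a difference of 1 is a factor of 2. All differences below are on that log2 scale. Because whole liver was measured, more matrix-producing cells and more RNA per such cell cannot be told apart.

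The Mapk9 signal was 2.39 to 3.28 on the Jnk2-null arrays and 7.41 to 7.67 on the others, and Mapk8 was 5.87 to 6.53 on the Jnk1-null arrays and 6.58 to 7.03 on the others. Expression of Ikbkg was 6.18 to 6.85 in the 6 double knockout livers. The arrays labelled Jnk1 KO replicate 1 and Jnk2 KO replicate 3 stood apart from the rest of their groups. Their Ly6d values were 10.12 and 9.70 against 4.67 to 5.35 on the other 7 arrays with intact NEMO and 7.88 to 10.48 in the double knockouts. Their Mmp12 values (macrophage elastase) were 8.66 and 8.20 against 3.69 to 4.88 on the other 7 and 7.54 to 8.96 in the double knockouts. Their Ikbkg values were 6.75 and 6.24, within the double knockout range, against 7.03 to 7.41 on the other 7. At these genes, the deleted one included, both arrays went against their labels of intact NEMO, and whether the labels are right was not tested. Xist, which is expressed from the inactive X chromosome of females, was 8.68 on the first of these arrays and 9.17 and 9.08 in NEMO/Jnk1 DKO replicates 1 and 2, and 2.40 to 2.82 on the other arrays, although all mice were labelled male. Apparent sex is therefore partly confounded with the differences of NEMO/Jnk1 DKO from WT. The same holds for its differences from Jnk1 KO, more so when Jnk1 KO replicate 1 is left out. Groups are given as labelled throughout, and for each comparison the count of members that passed the test is also given without the arrays that stand apart. For the double knockouts against WT that count is in the last section. Counts for other gene lists are not given without these arrays. The choice of the arrays left out was made after their values were seen, and matrix genes are among the genes that are high there.

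**Figure D1:**
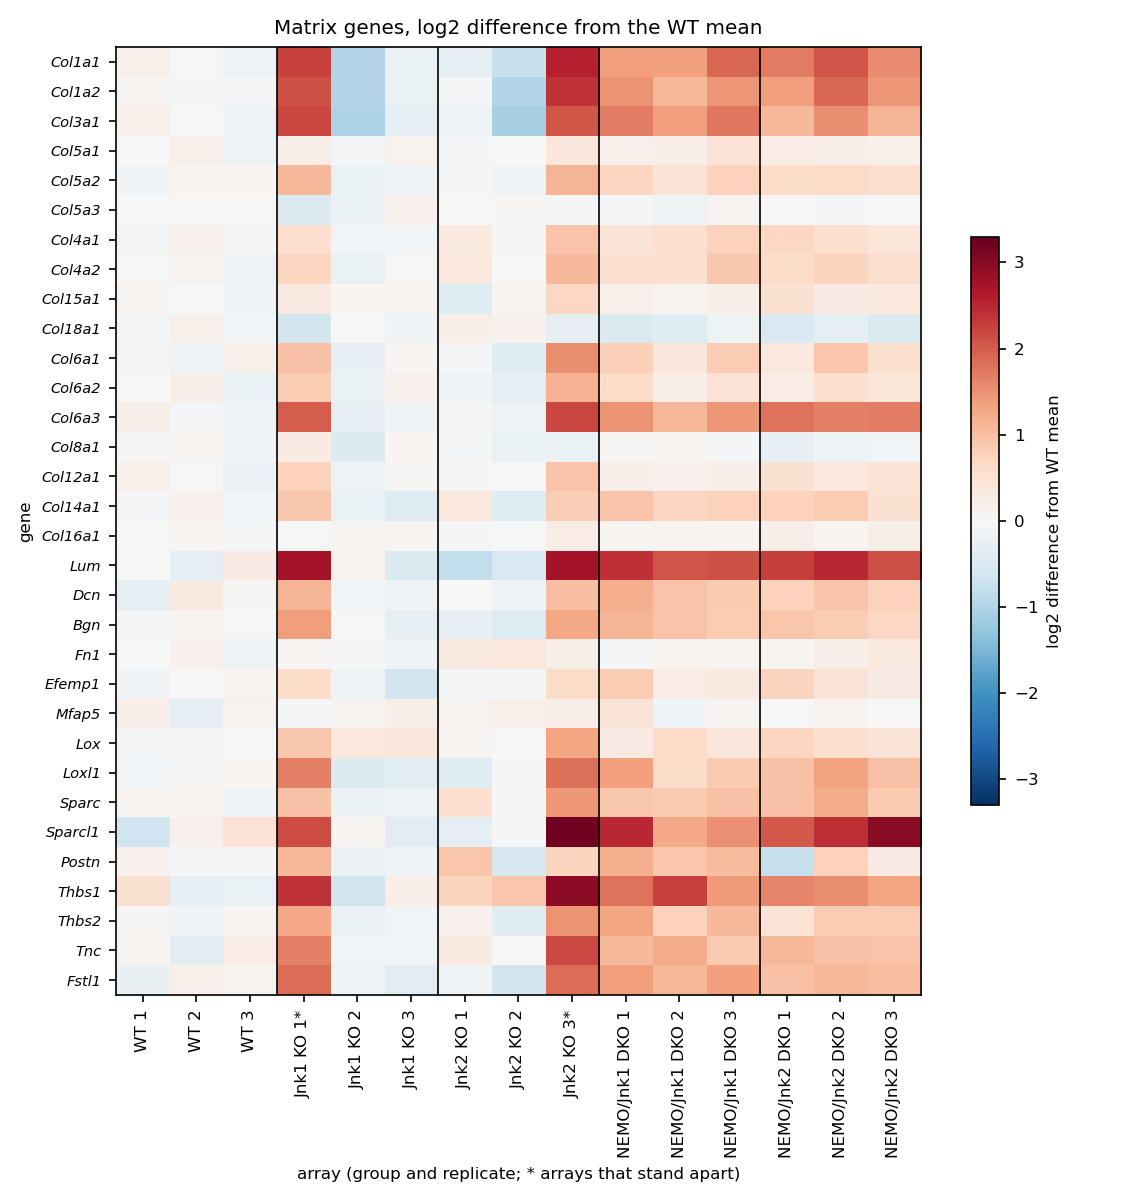
Log2 expression of the 32 measured matrix genes (rows, grouped by role from fibrillar collagens at the top to matricellular proteins at the bottom) on each of 15 arrays (columns), as the difference from the mean of the 3 WT arrays; red is higher and blue is lower. The 6 double knockout arrays on the right lie above all WT arrays for 21 of the 32 genes, and the 2 arrays marked with an asterisk are as red as the double knockouts.

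The first comparison asks what the liver matrix transcripts looked like when NEMO was deleted from hepatocytes on either Jnk-null background, against the floxed WT livers. Fibrillar collagens I and III, collagen VI alpha 3, lumican, SPARC-like 1 and thrombospondin 1 were higher in both double knockouts, lumican by 2.21 and 2.30. For 21 of the 32 members all 6 double knockout arrays lay above all 3 WT arrays, an order that 8.03% of all genes showed, and for 20 they lay above the 7 arrays with intact NEMO that do not stand apart (4.68% of all genes). The reverse order was found for 1 member, Col18a1, against 8.61% of all genes. The median difference over the members was 0.73 in NEMO/Jnk1 DKO and 0.62 in the NEMO/Jnk2 DKO livers, beside a median of -0.04 over all genes tested in either comparison.

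How many members passed the test depended on which arrays gave the estimate of spread. With all 15 arrays in 1 limma model, which shares the spread over all 5 groups, 0 of 32 members passed a Benjamini-Hochberg adjusted p of 0.05 in NEMO/Jnk1 DKO against WT (0.0652% of all genes passed), with 15 members at an unadjusted p under 0.05. In NEMO/Jnk2 DKO against WT 0 of 32 members passed too (2.63% of all genes), with 12 at an unadjusted p under 0.05. Here and below, counts at an unadjusted p under 0.05 are given without the share of all genes under it, and so describe the members only. Neither double knockout group nor WT holds an array that stands apart. When limma was fitted to the 6 arrays compared and no others, 20 of 32 members passed as higher and 0 as lower in NEMO/Jnk1 DKO, where 4.38% of all genes passed as higher and 2.1% as lower. In NEMO/Jnk2 DKO 23 members passed as higher and 1 as lower, where 5.37% and 4.25% of all genes passed in those directions. Leaving 1 of these 6 arrays out left 14 to 19 members higher in NEMO/Jnk1 DKO and 18 to 20 in NEMO/Jnk2 DKO, with none lower. Fewer of all genes passed in these fits as well, counted in either direction. In NEMO/Jnk1 DKO 652 to 1273 genes passed, against 1293 with all 6 arrays. The lowest counts of members (14) and of genes (652) both came without WT replicate 1. In NEMO/Jnk2 DKO 989 to 1481 genes passed, against 1919 with all 6 arrays. Without both arrays that stand apart and without NEMO/Jnk1 DKO replicates 1 and 2, 11 members passed as higher in NEMO/Jnk1 DKO against WT, a group then of 1 array that is assumed to vary like the others (1.09% of all genes passed as higher), and 21 as higher and 1 as lower in NEMO/Jnk2 DKO (5.34% and 4.39%). Adjusted p-values given below for the double knockouts against WT come from the limma fit of the 6 arrays compared, unless another fit is named. The differences themselves are the same in both fits.

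**Figure D2:**
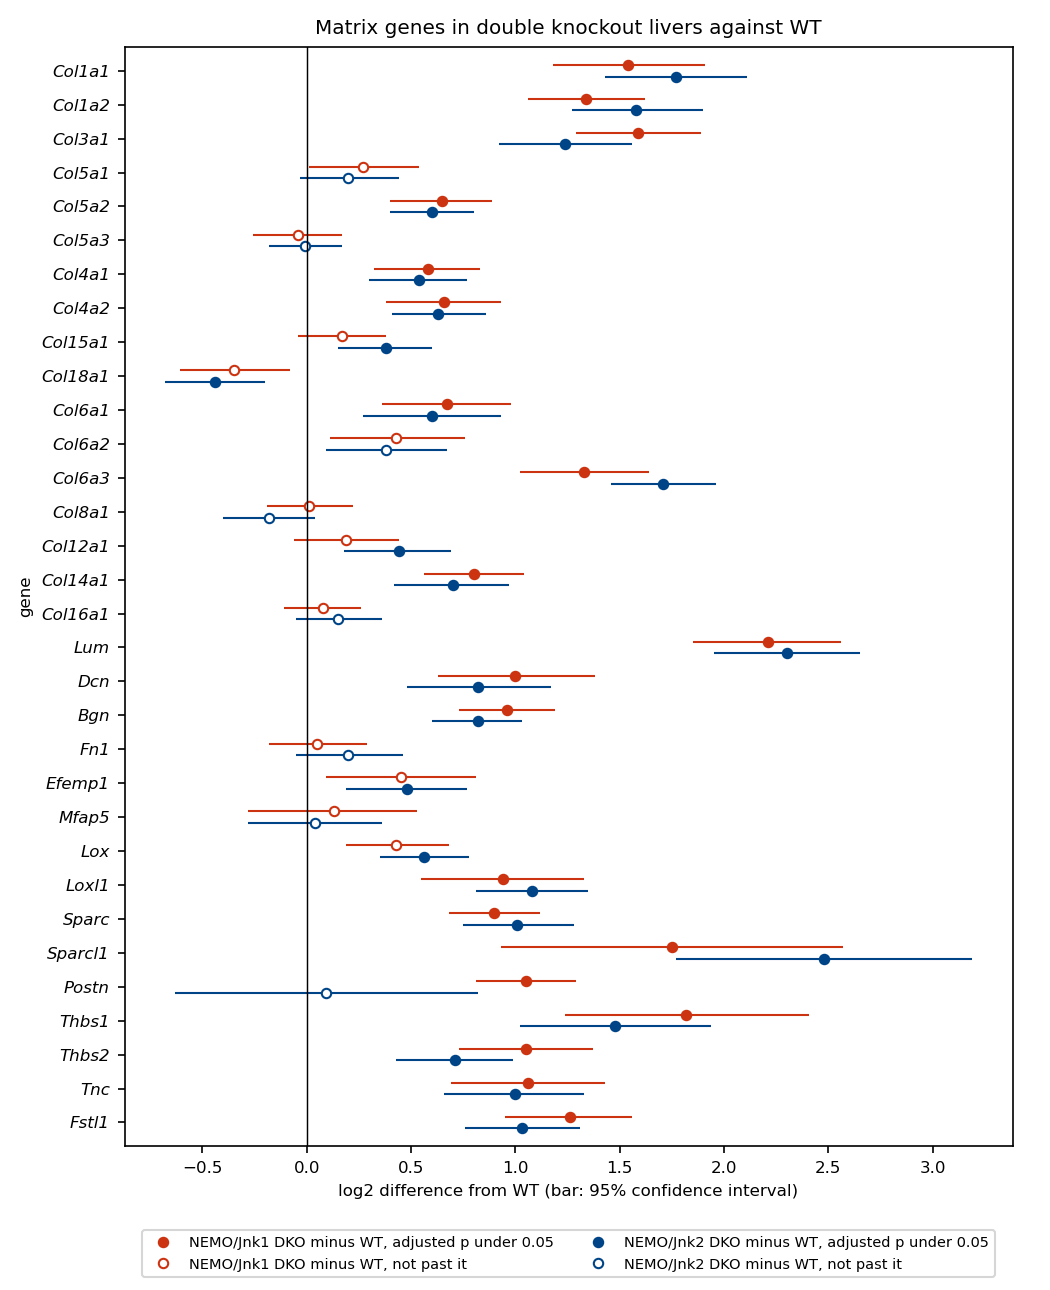
Log2 difference from WT for each of the 32 matrix genes (rows) in NEMO/Jnk1 DKO (red) and NEMO/Jnk2 DKO (blue), 3 arrays a group, with 95% confidence intervals from the limma fit of the 6 arrays compared; filled points passed an adjusted p of 0.05 there and open points did not. Lumican and Sparcl1 lie farthest to the right and Col18a1 is the gene whose points lie farthest to the left.

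Among the fibrillar collagens, Col1a1, which encodes the alpha 1 chain of type I collagen, was at 7.03, 6.86 and 6.68 in the WT livers, 8.24, 8.22 and 8.76 in NEMO/Jnk1 DKO and 8.56, 8.92 and 8.41 in NEMO/Jnk2 DKO. The single knockouts were at 9.10, 5.90 and 6.65 for Jnk1 KO and 6.56, 6.11 and 9.41 for Jnk2 KO. No double knockout array overlapped WT, whereas the arrays that stand apart were the highest of all 15. The difference from WT was 1.54 ± 0.16 (SE, n = 3 against 3, limma adjusted p = 0.00163), a factor of 2.92, in NEMO/Jnk1 DKO and 1.77 ± 0.15 (limma adjusted p = 0.00047), a factor of 3.41, in NEMO/Jnk2 DKO. In the model of all 15 arrays the standard error was 0.78 and the adjusted p-values were 0.347 and 0.236.

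Col1a2, the alpha 2 chain of the same trimer, was at 7.20, 7.04 and 7.08 in WT, 8.58, 8.19 and 8.56 in NEMO/Jnk1 DKO and 8.49, 9.00 and 8.57 in NEMO/Jnk2 DKO. Its single knockout values were 9.20, 6.15 and 6.89 in Jnk1 KO and 7.07, 6.15 and 9.49 in Jnk2 KO. It followed the same order of arrays as its partner chain at the top, with the array labelled Jnk2 KO replicate 3 highest and that labelled Jnk1 KO replicate 1 next, and the double knockouts were higher than WT by 1.34 ± 0.12 (limma adjusted p = 0.00101) and 1.58 ± 0.14 (limma adjusted p = 0.000512). Col3a1, the single chain of type III collagen, was at 7.43, 7.25 and 7.12 in WT, 8.96, 8.61 and 9.00 in NEMO/Jnk1 DKO and 8.33, 8.79 and 8.40 in NEMO/Jnk2 DKO. Its values were 9.47, 6.25 and 6.98 in Jnk1 KO and 7.13, 6.16 and 9.31 in Jnk2 KO. The WT range again lay below every double knockout array, by 1.59 ± 0.13 (limma adjusted p = 0.000826) and 1.24 ± 0.14 (limma adjusted p = 0.00149) between the means.

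The chains of type V collagen, which nucleates type I fibrils, did not move together. Col5a2, which neighbours Col3a1 in the mouse genome with no protein-coding gene between them, passed as higher in both double knockouts, by 0.65 (limma adjusted p = 0.0113) and 0.60 (limma adjusted p = 0.00458), from 4.58, 4.74 and 4.74 in WT to 5.14 to 5.45 in the 6 double knockout livers. Col5a1 differed by 0.27 and 0.20 and did not pass (limma adjusted p = 0.232 and 0.289), and the minor chain Col5a3 differed by -0.04 and -0.01, its 6 double knockout arrays lying between 5.64 and 5.90 against 5.80 to 5.84 in WT. Within the fibrillar collagens, 4 of 6 therefore passed as higher in each double knockout.

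Promoter sequence was at hand from RefSeq (build GRCm38.p6) for 22 of the 35 genes. The 250 bases before the start are shown for 3 collagens with large differences from WT, for Col5a3, which differed little, and for Col18a1, the member that was lower. Col18a1 had 2 windows, of which the first is shown, and which of them is used in liver was not tested. The 22 genes had 28 windows, and the motif counts below take a match in any window of a gene. Capitals mark string matches to the CCAAT box, which reads ATTGG on the other strand, and to the TATA box as TATAAA, which reads TTTATA there. They also mark matches to the GC box as GGGCGG, which reads CCGCCC on the other strand. In Col3a1 the TATAAA begins at -117 from the start, and whether any match is a working element was not tested. The AP-1 site, searched as TGANTCA, is in none of these windows.
Col1a2, chr6:4505368-4505617, plus strand: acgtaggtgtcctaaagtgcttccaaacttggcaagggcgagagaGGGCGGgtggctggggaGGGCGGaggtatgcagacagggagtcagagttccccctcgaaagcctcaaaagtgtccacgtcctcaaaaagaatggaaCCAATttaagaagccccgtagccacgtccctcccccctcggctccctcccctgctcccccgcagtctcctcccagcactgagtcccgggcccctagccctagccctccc
Col3a1, chr1:45311288-45311537, plus strand: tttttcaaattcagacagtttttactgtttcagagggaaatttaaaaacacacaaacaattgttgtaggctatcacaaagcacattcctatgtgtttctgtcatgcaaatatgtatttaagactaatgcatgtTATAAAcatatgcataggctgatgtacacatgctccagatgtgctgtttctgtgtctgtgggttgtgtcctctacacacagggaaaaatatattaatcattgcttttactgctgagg
Col6a3, chr1:90843972-90844221, minus strand: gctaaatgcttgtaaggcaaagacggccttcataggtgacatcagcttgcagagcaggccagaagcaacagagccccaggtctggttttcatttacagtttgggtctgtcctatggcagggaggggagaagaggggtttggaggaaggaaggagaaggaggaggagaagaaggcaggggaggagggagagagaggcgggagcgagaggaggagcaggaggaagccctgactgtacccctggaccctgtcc
Col5a3, chr9:20815068-20815317, minus strand: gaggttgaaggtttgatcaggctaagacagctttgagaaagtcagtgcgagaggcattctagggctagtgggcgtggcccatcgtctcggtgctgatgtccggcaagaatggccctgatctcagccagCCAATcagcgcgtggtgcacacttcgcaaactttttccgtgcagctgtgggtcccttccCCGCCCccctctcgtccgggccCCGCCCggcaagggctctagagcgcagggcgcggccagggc
Col18a1, chr10:77166531-77166780, minus strand: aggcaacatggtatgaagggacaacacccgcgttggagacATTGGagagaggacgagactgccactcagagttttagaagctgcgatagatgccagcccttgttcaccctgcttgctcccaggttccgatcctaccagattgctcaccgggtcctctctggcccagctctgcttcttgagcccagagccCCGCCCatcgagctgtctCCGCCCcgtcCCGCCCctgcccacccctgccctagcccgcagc
Over windows of this length and either strand, GGGCGG was found in 14 of the 22 members (63.6%) and in 35.4% of 27025 genes, CCAAT in 7 members (31.8%) and 37.5% of genes, TATAAA in 4 members (18.2%) and 14.3% of genes, and TGANTCA in 2 members (9.1%) and 7.8% of genes. The short Smad-binding core CAGAC was in 13 members (59.1%) and in 45.8% of genes and is not capitalised; none of these motifs is contained in another. Col6a3 held CAGAC but none of the other 4 motifs, and was among the members with the largest difference from WT, whereas Col5a3 held CCAAT and GGGCGG as Col1a2 did.

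The second group is the collagens of basement membranes and their surroundings. Col4a1 and Col4a2, the chains of the common type IV collagen trimer, are head-to-head neighbours with starts 21 bases apart on opposite strands. Col4a1 was at 6.29, 6.48 and 6.28 in WT and at 6.76 to 7.11 in the 6 double knockouts, higher by 0.58 (limma adjusted p = 0.0209) and 0.54 (limma adjusted p = 0.0146). Col4a2 was at 5.84, 5.98 and 5.74 in WT and at 6.39 to 6.73 in the double knockouts, higher by 0.66 and 0.63, and passed in both. The pair thus differed from WT by similar amounts on both Jnk-null backgrounds.

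The related multiplexins split. Col18a1, whose product releases endostatin and which hepatocytes are known to express, was at 8.92, 9.16 and 8.90 in WT, 8.52, 8.59 and 8.82 in NEMO/Jnk1 DKO, and 8.48, 8.67 and 8.52 in NEMO/Jnk2 DKO. Its single knockout values were 8.40, 9.00 and 8.87 in Jnk1 KO and 9.21, 9.13 and 8.68 in Jnk2 KO. It was the only member whose double knockout arrays all lay below the other 7 arrays with intact NEMO, an order shown by 1.82% of all genes, and the 2 arrays that stand apart were low for it as well. The difference was -0.35 ± 0.12 (limma adjusted p = 0.126) in NEMO/Jnk1 DKO and -0.44 ± 0.10 (limma adjusted p = 0.0351) in NEMO/Jnk2 DKO, and the latter no longer passed in the fit of the arrays compared when any 1 of them was left out. Col15a1, of the same family, was higher by 0.17 (limma adjusted p = 0.361) and 0.38 (limma adjusted p = 0.048), the second of which did not pass when the arrays that stand apart were left out of the model of all groups (limma adjusted p = 0.0654).

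Of the beaded, network-forming and fibril-associated collagens, 3 of 7 passed in NEMO/Jnk1 DKO and 4 of 7 in NEMO/Jnk2 DKO, all as higher. Col6a3, the largest chain of the microfibrillar type VI collagen, was at 5.77, 5.54 and 5.40 in WT, 7.05, 6.67 and 6.99 in NEMO/Jnk1 DKO and 7.36, 7.23 and 7.25 in NEMO/Jnk2 DKO. In Jnk1 KO it was at 7.57, 5.28 and 5.45 and in Jnk2 KO at 5.54, 5.41 and 7.78. The arrays fell into a low range up to 5.77 and a high range from 6.67, and the arrays that stand apart were in the high range. The difference from WT was 1.33 ± 0.14 (limma adjusted p = 0.00148) and 1.71 ± 0.11 (limma adjusted p = 0.000173). The NEMO/Jnk2 DKO arrays all lay above the NEMO/Jnk1 DKO arrays, an order that 5.51% of all genes showed.

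Its partner chain Col6a1 was higher by 0.67 (limma adjusted p = 0.0252) and 0.60 (limma adjusted p = 0.0371). Col6a2, the genomic neighbour of Col6a1, differed by 0.43 and 0.38 and did not pass (limma adjusted p = 0.12 and 0.114), with NEMO/Jnk1 DKO replicate 2 at 5.86, as was the highest WT array. Col14a1, which decorates the surface of collagen fibrils, was at 8.16, 8.38 and 8.15 in WT and 8.72 to 9.16 in the double knockouts, higher by 0.80 (limma adjusted p = 0.00388) and 0.70 (limma adjusted p = 0.0088). Col12a1, its close relative, differed by 0.19 (limma adjusted p = 0.378) and 0.44 (limma adjusted p = 0.0438). The network-forming Col8a1 differed by 0.01 and -0.18 and the fibril-associated Col16a1 by 0.08 and 0.15, and neither passed. Beside the members, 27 further collagen genes were measured, and 0 of them passed in either comparison. In each, 4 had an unadjusted p under 0.05 and the median difference was 0.01. Members and lists were chosen with earlier results of these data known, so members against further collagens is a description and not a test.

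All 3 small leucine-rich proteoglycans passed in both double knockouts. Lum (lumican), which regulates the thickness of collagen fibrils, was at 6.06, 5.75 and 6.32 in WT, 8.46, 8.13 and 8.15 in NEMO/Jnk1 DKO and 8.32, 8.52 and 8.18 in NEMO/Jnk2 DKO. In Jnk1 KO it was at 8.78, 6.17 and 5.57, and in Jnk2 KO at 5.22, 5.54 and 8.78. A gap separated the 6 double knockouts and the 2 arrays that stand apart, all at 8.13 or more, from the other 7 arrays, all at 6.32 or less. The difference from WT was 2.21 ± 0.16 (limma adjusted p = 0.000434), a factor of 4.61, and 2.30 ± 0.15 (limma adjusted p = 0.000192), a factor of 4.92. In the model of all 15 arrays its standard error was 0.82 and its adjusted p-values were 0.208 and 0.146.

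Dcn (decorin), which lies next to Lum in the genome with no protein-coding gene between them and binds collagen and TGF-beta, was at 9.79, 10.41 and 10.16 in WT. Its values were 11.33, 11.07 and 10.98 in NEMO/Jnk1 DKO, 10.89, 11.06 and 10.88 in the NEMO/Jnk2 DKO livers, 11.24, 10.02 and 10.00 in Jnk1 KO and 10.11, 9.97 and 11.11 in Jnk2 KO. It was higher than WT by 1.00 ± 0.16 (limma adjusted p = 0.0099) and 0.82 ± 0.15 (limma adjusted p = 0.0117), so the neighbouring genes differed from WT in the same direction and by unequal amounts. Bgn (biglycan), the close relative of decorin, was higher by 0.96 (limma adjusted p = 0.00162) and 0.82 (limma adjusted p = 0.00161).

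**Figure D3:**
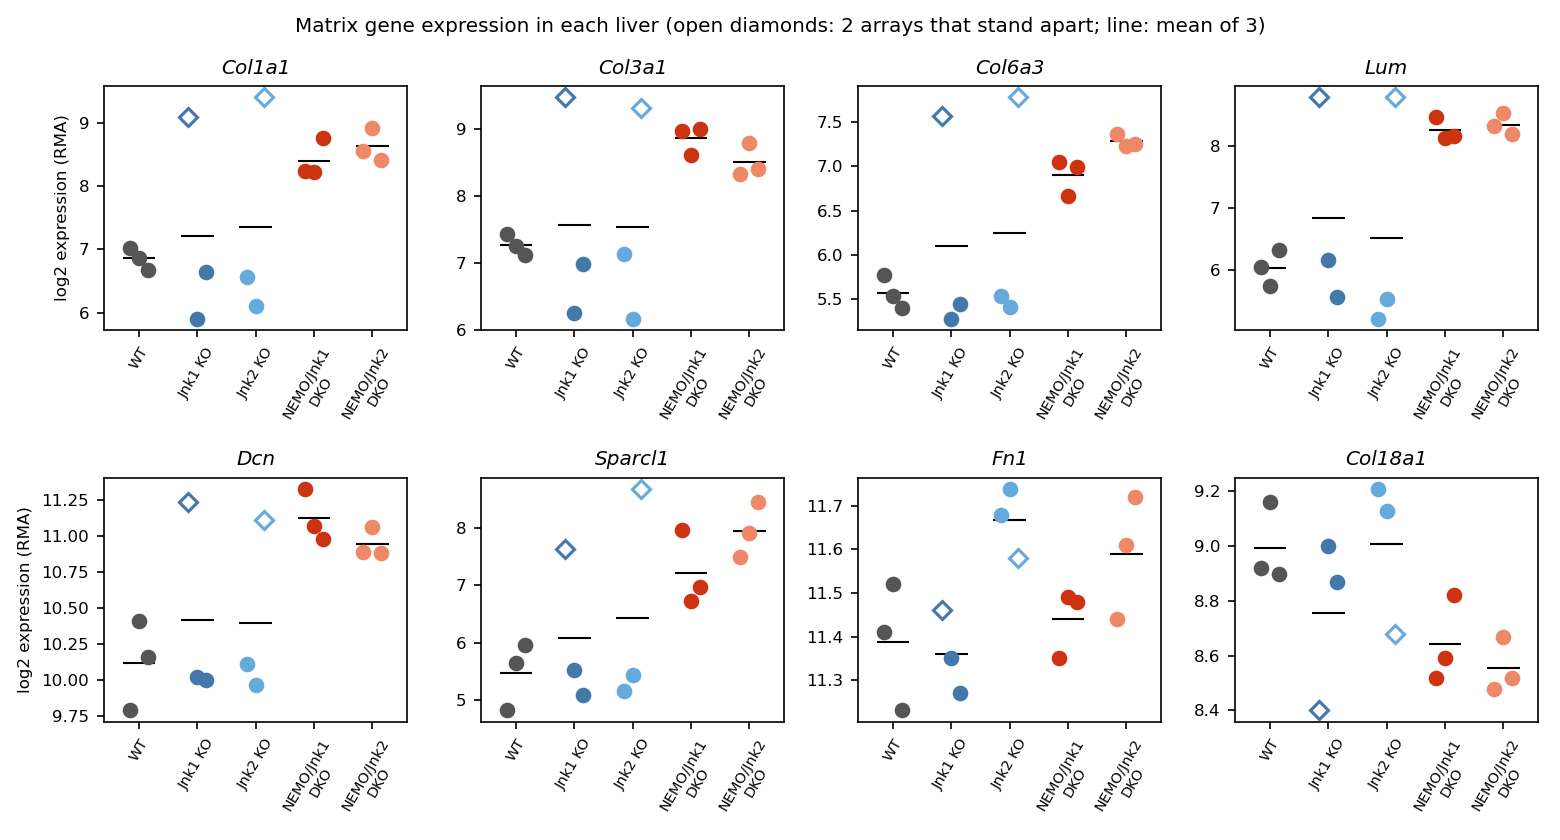
Log2 expression of 8 matrix genes (1 panel each) on each array, by group; filled circles are single mice, open diamonds are the 2 arrays that stand apart, and lines are means of 3. For Lum the 6 double knockout arrays lie at 8.13 to 8.52 and the WT arrays at 5.75 to 6.32, whereas the Fn1 values of both double knockouts overlap WT and Col18a1 is lower in the double knockouts; the vertical axes differ between panels and do not start at 0.

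Fn1 (fibronectin), which hepatocytes secrete into plasma and stromal cells deposit in the matrix, did not follow the collagens. It was at 11.41, 11.52 and 11.23 in WT, 11.35, 11.49 and 11.48 in NEMO/Jnk1 DKO, 11.44, 11.61 and 11.72 in the NEMO/Jnk2 DKO livers, 11.46, 11.35 and 11.27 in Jnk1 KO and 11.68, 11.74 and 11.58 in Jnk2 KO. All 3 Jnk2 KO arrays lay above WT, Jnk1 KO and NEMO/Jnk1 DKO, with a difference from WT of 0.28 that did not pass (limma adjusted p = 0.263 in the model of all 15 arrays). The double knockouts overlapped WT, with differences of 0.05 (95% confidence interval -0.18 to 0.29, limma adjusted p = 0.818) and 0.20 (-0.05 to 0.46, limma adjusted p = 0.337). Spliced forms of fibronectin were not distinguished by these values. Efemp1 (fibulin-3) differed by 0.45 (limma adjusted p = 0.144) and 0.48 (limma adjusted p = 0.0487), the second not passing with the arrays that stand apart left out of the model of all groups (limma adjusted p = 0.0945). Mfap5, a microfibril glycoprotein, lay below the dim threshold of 3.69 on all arrays and was the 1 member that did not pass the filter on low values, with differences of 0.13 and 0.04.

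The lysyl oxidases, which form the cross-links between collagen molecules, lay above WT in both double knockouts, and the call for Lox in one of them depended on the fit. Lox was at 3.36, 3.42 and 3.39 in WT, 3.67, 4.03 and 3.76 in NEMO/Jnk1 DKO, 4.09, 3.96 and 3.81 in the NEMO/Jnk2 DKO livers, 4.27, 3.75 and 3.77 in Jnk1 KO and 3.49, 3.37 and 4.69 in Jnk2 KO. These values are near the dim threshold, the double knockouts did not overlap WT, and all 3 Jnk1 KO arrays also lay above WT. The difference was 0.43 ± 0.11 (limma adjusted p = 0.0523) in NEMO/Jnk1 DKO, which did not pass there but did with the arrays that stand apart left out of the model of all groups (limma adjusted p = 0.0223), and 0.56 ± 0.10 (limma adjusted p = 0.00848) in NEMO/Jnk2 DKO. Loxl1, whose product is known for the cross-linking of elastin, was at 4.64, 4.75 and 4.78 in WT and 5.34 to 6.07 in the double knockouts, higher by 0.94 (limma adjusted p = 0.0145) and 1.08 (limma adjusted p = 0.00129).

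The matricellular proteins passed as higher in 7 of 7 cases for NEMO/Jnk1 DKO and 6 of 7 for NEMO/Jnk2 DKO. Sparcl1 (hevin), a relative of SPARC, was at 4.82, 5.64 and 5.96 in WT, 7.96, 6.73 and 6.98 in NEMO/Jnk1 DKO and 7.50, 7.91 and 8.46 in NEMO/Jnk2 DKO. Its single knockout values were 7.63, 5.53 and 5.09 in Jnk1 KO and 5.16, 5.43 and 8.69 in Jnk2 KO. The difference from WT was 1.75 ± 0.36 (limma adjusted p = 0.0257) and 2.48 ± 0.31 (limma adjusted p = 0.00227), with no overlap. Sparc (osteonectin), which binds collagen and calcium, was higher by 0.90 (limma adjusted p = 0.0017) and 1.01 (limma adjusted p = 0.0016).

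Thbs1 (thrombospondin 1), which activates latent TGF-beta, was at 5.04, 4.26 and 4.31 in WT, 6.33, 6.80 and 5.95 in NEMO/Jnk1 DKO and 6.14, 6.08 and 5.83 in NEMO/Jnk2 DKO. In Jnk1 KO it was at 6.91, 3.93 and 4.76 and in Jnk2 KO at 5.27, 5.46 and 7.49, so that all 3 Jnk2 KO arrays lay above WT. It was higher in the double knockouts by 1.82 ± 0.26 (limma adjusted p = 0.00501) and 1.48 ± 0.20 (limma adjusted p = 0.00325). Thbs2 was higher by 1.05 (limma adjusted p = 0.00398) and 0.71 (limma adjusted p = 0.00866), and Tnc (tenascin C, a protein of provisional matrix) by 1.06 (limma adjusted p = 0.00707) and 1.00 (limma adjusted p = 0.00463). Fstl1, a secreted follistatin-like protein, was higher by 1.26 (limma adjusted p = 0.00169) and 1.03 (limma adjusted p = 0.00162).

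Postn (periostin), which supports the assembly of collagen fibrils, had all NEMO/Jnk1 DKO arrays above all NEMO/Jnk2 DKO arrays, as had 7.12% of all genes. It was at 5.28, 5.08 and 5.08 in WT, 6.33, 6.07 and 6.19 in NEMO/Jnk1 DKO and 4.39, 5.90 and 5.42 in NEMO/Jnk2 DKO, and at 6.25, 4.96 and 5.02 in Jnk1 KO and 6.05, 4.63 and 5.89 in Jnk2 KO. NEMO/Jnk1 DKO was above WT on all 3 arrays by 1.05 (limma adjusted p = 0.00134), a call that was lost when all arrays except the 2 that stand apart gave the spread (limma adjusted p = 0.0896). The NEMO/Jnk2 DKO livers spanned WT, with a difference of 0.09 ± 0.32 (limma adjusted p = 0.905).

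The double knockouts were next compared with each other and with the single knockout of the same kinase, to ask what the added loss of NEMO did to the matrix on each background. As labelled, 0 of 32 members passed in NEMO/Jnk1 DKO against Jnk1 KO (0% of all genes passed), with 4 at an unadjusted p under 0.05, and the median difference over the members was 0.53. In NEMO/Jnk2 DKO against Jnk2 KO 0 of 32 passed as well (0.00502% of all genes), with 2 at an unadjusted p under 0.05 and a median of 0.25. Each single knockout group holds 1 array that stands apart, and both of these arrays exceeded the other 7 arrays with intact NEMO for 25 of the 32 members (11.3% of all genes) and exceeded all 6 double knockouts for 15 (4.49%). The array labelled Jnk2 KO replicate 3 was the highest of all 15 arrays for 20 members, a count that was not made for all genes. As labelled, the largest of these differences were 1.41 ± 0.82 for Lum in NEMO/Jnk1 DKO (limma adjusted p = 0.962) and 1.83 ± 0.82 for Lum in NEMO/Jnk2 DKO (limma adjusted p = 0.615).

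Without the 2 arrays, which leaves 2 mice in each single knockout group, 20 of 32 members passed as higher in NEMO/Jnk1 DKO against Jnk1 KO (4.05% of all genes passed as higher), with a median of 0.97. In NEMO/Jnk2 DKO against Jnk2 KO 19 passed as higher and 1 as lower (3.88% and 1.98% of all genes), with a median of 0.66. Since the arrays left out are high for these same genes, these counts are a description of the remaining mice and not independent of the choice. Col1a1 was then higher by 2.13 ± 0.24 (limma adjusted p = 0.000297) on the Jnk1-null background and 2.29 ± 0.24 (limma adjusted p = 0.000162) on the Jnk2-null background. Lum was higher by 2.38 ± 0.20 (limma adjusted p = 4.3e-05) and 2.96 ± 0.20 (limma adjusted p = 7.27e-06), and Col6a3 by 1.54 and 1.81. Col18a1 was lower by -0.29 (limma adjusted p = 0.217) and -0.62 (limma adjusted p = 0.00806). Leaving out NEMO/Jnk1 DKO replicates 1 and 2 as well leaves 1 array in that group. The count for the Jnk1-null background is therefore listed only in the last section, and nothing is concluded from it. On the Jnk2-null background 17 members then passed as higher and 1 as lower (3.47% and 1.71% of all genes).

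**Figure D4:**
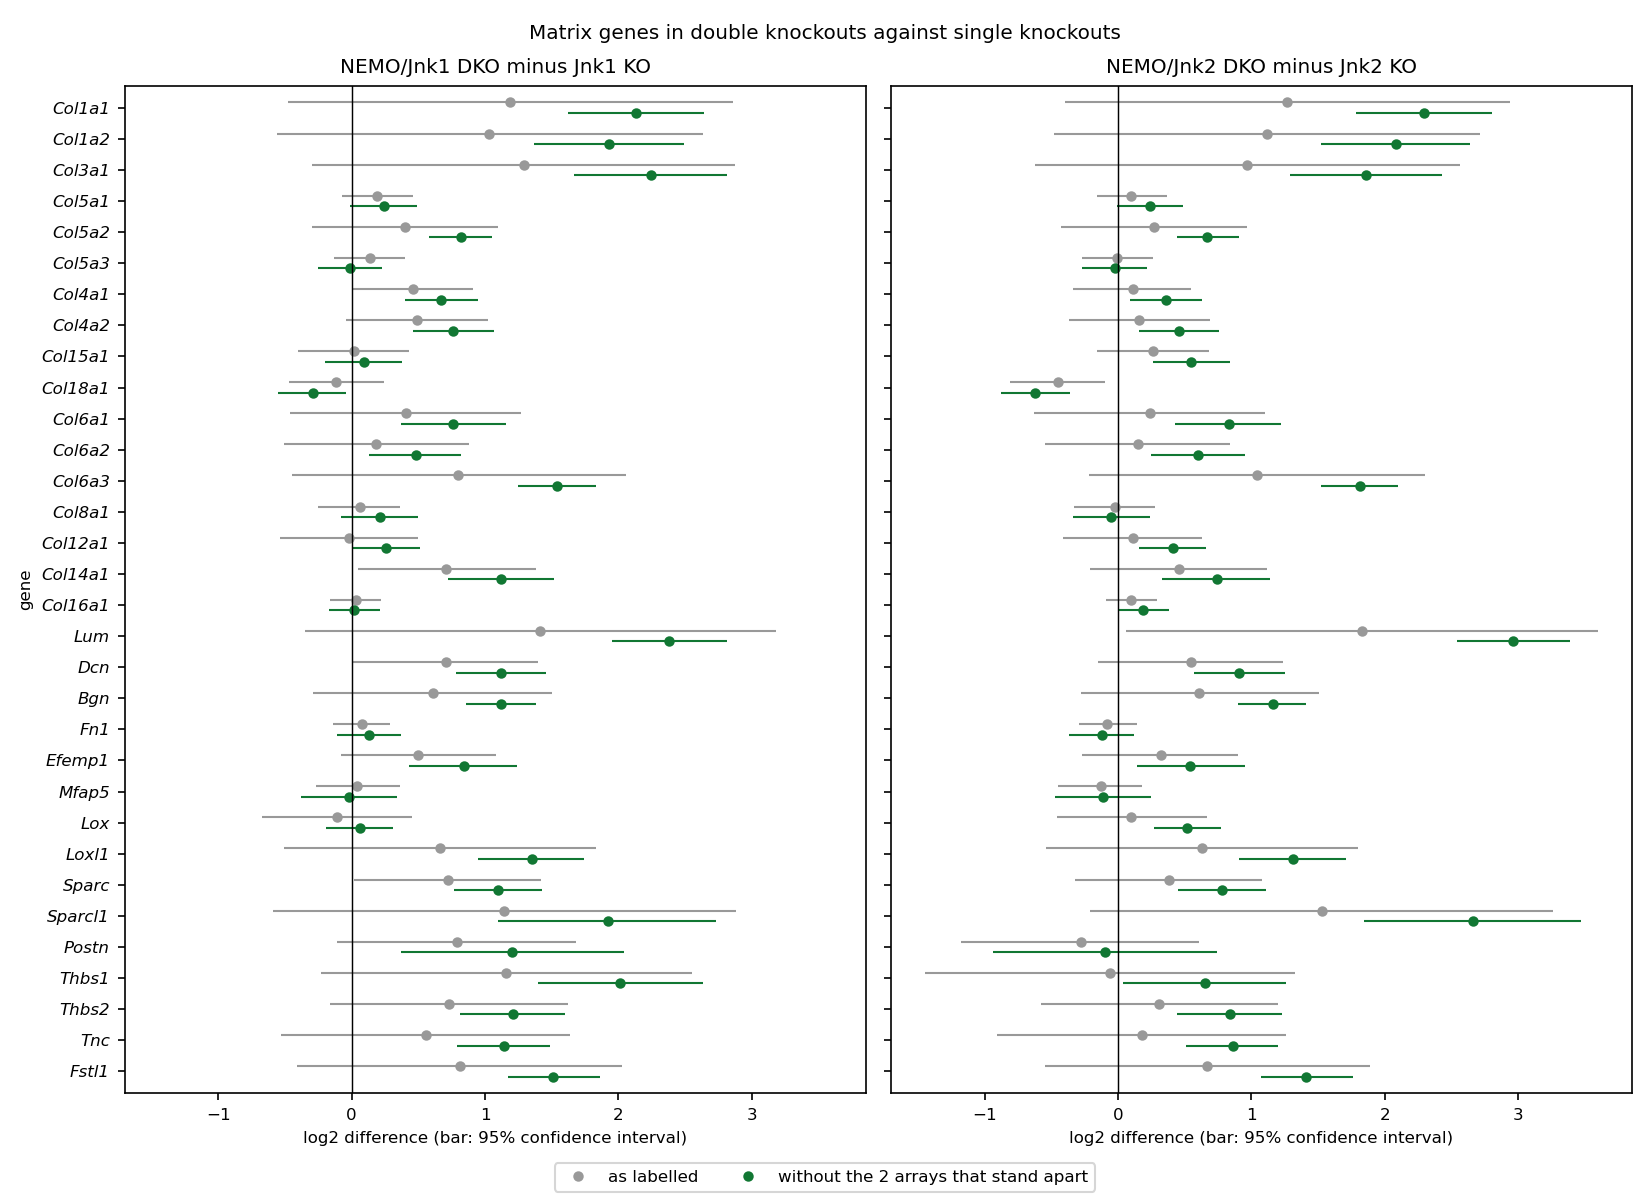
Log2 difference of each double knockout from the single knockout of the same kinase for the 32 matrix genes (rows), with 95% confidence intervals from limma; grey is with all 15 arrays as labelled and green is without the 2 arrays that stand apart. As labelled, Col1a1 differed by 1.19 and 1.27 with intervals that cross 0, and without the 2 arrays by 2.13 and 2.29.

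Some members differed little from the single knockouts even without the arrays that stand apart. Fn1 differed by 0.13 (limma adjusted p = 0.67) and -0.12 (limma adjusted p = 0.673), and Col5a3 by -0.01 and -0.02. Lox differed from Jnk1 KO by 0.06 (limma adjusted p = 0.877) and from Jnk2 KO by 0.52 (limma adjusted p = 0.0184). Thbs1 was higher than in Jnk1 KO by 2.01 (limma adjusted p = 0.00118) and than in Jnk2 KO by 0.65 (limma adjusted p = 0.242). The difference between these NEMO effects did not pass for either gene, at -0.46 ± 0.16 for Lox (limma adjusted p = 0.602) and 1.36 ± 0.40 for Thbs1 (limma adjusted p = 0.432).

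The test of whether the effect of NEMO loss differed between the Jnk1-null and the Jnk2-null background passed for 0 of 32 members as labelled and 0 without the 2 arrays (0% and 0.01% of all genes in limma), with 0 and 4 members at an unadjusted p under 0.05. Between the double knockouts themselves 0 of 32 members passed as labelled (0.105% of all genes) and 0 without the 2 arrays (0.321%), with 1 and 4 at an unadjusted p under 0.05. With only the 6 double knockout arrays in the fit, none of which stands apart, 0 of 32 passed as well (0.15%), with 5 at an unadjusted p under 0.05. Those 5 members were also the ones whose double knockout groups did not overlap, 2 with NEMO/Jnk1 DKO higher (7.12% of all genes) and 3 with it lower (5.51%). Postn was 0.96 ± 0.33 higher in NEMO/Jnk1 DKO in that fit (limma adjusted p = 0.502), and Col8a1 0.20 ± 0.08 higher (limma adjusted p = 0.599). Col6a3 differed by -0.38 ± 0.11 (limma adjusted p = 0.416), Col12a1 by -0.24 ± 0.08 (limma adjusted p = 0.463) and Col15a1 by -0.21 ± 0.09 (limma adjusted p = 0.606). NEMO/Jnk1 DKO replicates 1 and 2 had the high Xist of females and no NEMO/Jnk2 DKO array did. In these differences the missing kinase and apparent sex are therefore partly confounded. For Col1a1 the 95% confidence interval of the difference between the double knockouts was wide as labelled, with a standard error of 0.78 around -0.23, so a difference of the size seen against WT could not be resolved there; without the 2 arrays it was -0.23 ± 0.21 (limma adjusted p = 0.953).

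Loss of either kinase alone was compared with WT last. As labelled, 0 of 32 members passed in Jnk1 KO (0.01% of all genes) and 0 in Jnk2 KO (0.411%), with 0 and 2 members at an unadjusted p under 0.05, and medians of 0.26 and 0.35. Without the 2 arrays 0 passed in either group (0.015% and 1.24% of all genes), 5 and 7 members had an unadjusted p under 0.05, and the medians were -0.16 and -0.07. The sign of the median therefore turned with the arrays that stand apart. Neither these medians nor the counts at an unadjusted p under 0.05 are set beside those of all genes. Without the 2 arrays Col3a1 was -0.65 ± 0.27 in Jnk1 KO (limma adjusted p = 0.976) and -0.62 ± 0.27 in Jnk2 KO (limma adjusted p = 0.343). Jnk1 KO replicate 2 was the lowest of all arrays for 9 members and Jnk2 KO replicate 2 for 7. How often these arrays were lowest over all genes was not counted. Lum in Jnk2 KO differed by -0.67 ± 0.20 (limma adjusted p = 0.137).

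The other genes of the matrix pathway were read from lists of related genes in the fit of the arrays compared. Of all genes, 4.38% passed as higher and 2.1% as lower in NEMO/Jnk1 DKO in that fit. In NEMO/Jnk2 DKO the shares were 5.37% and 4.25%. Of 14 laminins and other basement membrane genes, 4 passed as higher in each double knockout, led by Nid1 (nidogen 1, which links laminin to type IV collagen) at 1.38 and 1.63, and including Lama2, Lamb1 and Lamc1 at 0.59 to 0.78. Of 24 other proteoglycans and matrix glycoproteins, 5 passed as higher in NEMO/Jnk1 DKO, among them Emilin1 at 1.01 and Eln (elastin) at 0.95, and 7 as higher and 1 as lower in NEMO/Jnk2 DKO. Among 23 genes of collagen biosynthesis and processing, 3 passed as higher and 1 as lower in NEMO/Jnk1 DKO, and 5 as higher in NEMO/Jnk2 DKO. Tgm2 (transglutaminase 2, a cross-linking enzyme) was higher by 1.28 and 1.37, Crtap, part of the prolyl 3-hydroxylase complex, by 0.67 and 0.86, and Pcolce, which enhances procollagen C-proteinase, by 0.61 and 0.65, while the C-proteinase gene Bmp1 was lower by -0.47 in NEMO/Jnk1 DKO. With all 15 arrays in the model, none of these lists had a gene that passed (0.0652% and 2.63% of all genes did).

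Of 18 collagen and fibronectin receptors, 6 passed as higher in NEMO/Jnk1 DKO and 9 in the NEMO/Jnk2 DKO livers (4.38% and 5.37% of all genes). With all 15 arrays in the model, 2 of them passed in NEMO/Jnk2 DKO (2.63% of all genes). Cd44, the hyaluronan receptor, was higher by 1.23 and 0.99, Lair1, an inhibitory collagen receptor of leukocytes, by 1.02 and 1.11, and the integrin alpha 8 chain Itga8 by 0.92 and 1.39. Among 22 TGF-beta and PDGF ligands, receptors and Smads, 8 and 9 passed as higher and 0 as lower, and 0 passed with all 15 arrays in the model. The receptors Pdgfra and Pdgfrb, through which PDGF acts on mesenchymal cells, were higher by 1.10 and 1.23 in NEMO/Jnk1 DKO and by 1.58 and 1.43 in NEMO/Jnk2 DKO.

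Markers of the cell types that make or surround the matrix moved with these genes to unequal degrees, and their part in the result was not tested. For 12 markers of stellate cells and myofibroblasts the mean log2 level per liver was 5.65 to 6.02 in WT, 6.26 to 6.66 in NEMO/Jnk1 DKO and 6.02 to 6.27 in NEMO/Jnk2 DKO. In the fit of the arrays compared 3 of them passed as higher in NEMO/Jnk1 DKO, namely Pdgfrb, Tagln (1.18) and Lrat (1.14), and 2 in NEMO/Jnk2 DKO. Of all genes, 4.38% and 5.37% passed as higher there. Acta2, the smooth muscle actin of myofibroblasts, was at 5.82, 5.50 and 7.78 in WT and 6.72 to 8.80 in the double knockouts and overlapped between them. For 9 macrophage markers the mean level was 5.66 to 6.06 in WT, 6.91 to 7.34 in NEMO/Jnk1 DKO and 6.86 to 7.30 in NEMO/Jnk2 DKO, and 6 and 5 of them passed as higher.

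Of 6 portal fibroblast markers 1, Cd34, passed as higher in each double knockout, of 8 sinusoidal endothelial markers 1 (Pecam1, 0.44) passed in NEMO/Jnk1 DKO and 0 in the NEMO/Jnk2 DKO livers, and of 6 mesothelial and 5 cholangiocyte markers 0 passed. Over all genes the shares in the fit of the arrays compared were 4.38% and 5.37% higher and 2.1% and 4.25% lower. Portal fibroblast marker means were 4.45 to 4.56 in WT and 4.61 to 4.98 in the double knockouts. The 7 hepatocyte markers were at 12.24 to 12.39 in WT, 12.16 to 12.29 in NEMO/Jnk1 DKO and 12.03 to 12.13 in NEMO/Jnk2 DKO, where Cyp2e1 passed as lower by -0.74. The tissue label was borne out by Alb, at 13.04 to 13.21 on all arrays. In the arrays that stand apart the stellate mean was 6.48 and 6.47 and the macrophage mean 7.14 and 7.28, as high as in the double knockouts.

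**Figure D5:**
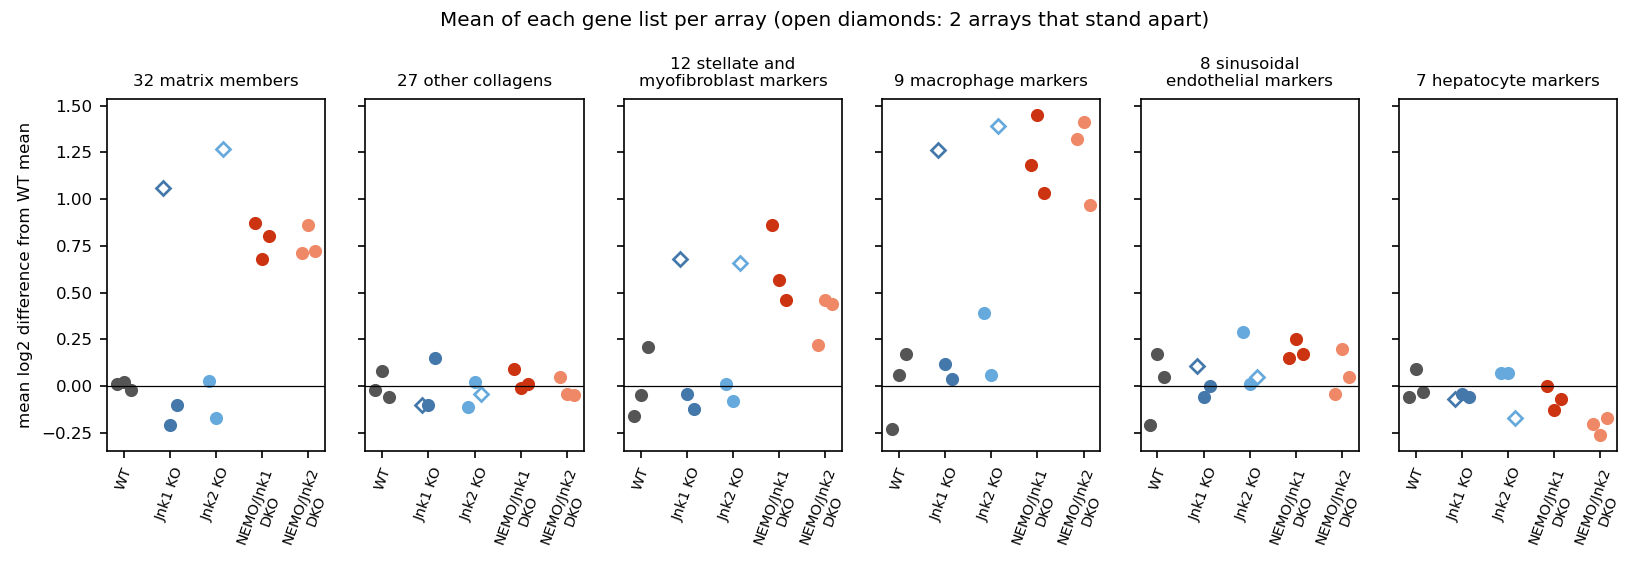
Mean log2 difference from the WT mean per array for the 32 matrix members, the 27 other collagens and 4 lists of cell type markers (1 panel each), by group; circles are single mice and open diamonds the 2 arrays that stand apart. The members are at 0.68 to 0.87 in the double knockouts and at 1.06 and 1.27 in the arrays that stand apart, the macrophage markers lie higher in the same arrays, and the other collagens and hepatocyte markers stay close to 0.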

How the data were processed

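Values are log2 expression as deposited, made by the authors with RMA (version not given in the submitters' processing notes); their range sets base 2. Array medians were 4.26 to 4.38, no 2 arrays were identical, and pairs of arrays correlated at 0.976 to 0.991. Of 35556 probe sets, 21789 had 1 gene symbol in the platform's gene table, 1621 had several and 12146 were not listed there. For genes with several, the probe set with the highest mean was kept, which left 19938 genes, and no further normalization was applied. The number of arrays limits the precision.

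Each comparison was fitted with limma 3.58.1 in R 4.3.3 (lmFit, eBayes) to all 15 arrays with 1 mean per group, with calls at Benjamini-Hochberg adjusted p under 0.05 over all genes (10 residual and 3.75 prior degrees of freedom). The fit to only the arrays compared has 4 residual degrees of freedom. The p-values measure the spread between the mice of a group. Replicate numbers mark separate mice. The script was tested on simulated data.

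The members and all lists were chosen with earlier results of these data known. All members are named, and of other lists up to 4 genes per comparison past the threshold with the largest change, or else the 2 of lowest p; further genes of these lists were named after their values were seen. Other settings were the arrays in the fit, a trended robust prior, renewed quantile normalization, median centring, a filter on dim genes (above 3.691, the 40th percentile, on at least 3 arrays), the mean of all probe sets, a replicate block and each array left out. Promoters were searched and figures drawn with Python 3.11.15 and matplotlib 3.10.9.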

Additional observations from a re-analysis of the deposited data

How the results depend on the processing

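As labelled, 0 members passed in any comparison, and a trended robust prior, renewed quantile normalization, median centring, the dim filter, the mean of all probe sets, a term for the female pattern and leaving out the 3 arrays of that pattern gave 0 in every one. Replicate numbers do not pair the mice: the deviations of same-numbered arrays correlated at -0.39 to 0.30 over 30 pairs, and 3 of 15 arrays correlated best with their own number. With the replicate block 0 members passed in every comparison.

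The count changed with the arrays that give the spread. It was 20 (NEMO/Jnk1 DKO against WT) and 24 (NEMO/Jnk2 DKO against WT) with only the arrays compared. Without the 2 arrays that stand apart it was 20, 22, 20 against Jnk1 KO and 20 against Jnk2 KO, in that order, and 11, 22, 13 and 18 without NEMO/Jnk1 DKO replicates 1 and 2 as well. Leaving out 1 array gave 0 to 19 against WT in NEMO/Jnk1 DKO (2 without Jnk1 KO replicate 1 in the model of all groups), 0 to 20 in NEMO/Jnk2 DKO (4 without Jnk1 KO replicate 1 and 5 without Jnk2 KO replicate 3), and 0 to 1 for NEMO/Jnk1 DKO against Jnk1 KO. The upper counts against WT come from the arrays compared alone. For the model of all groups with 1 array left out, the share of all genes that passed is not given, so those counts describe the members only. Without replicates 1 and 2 the NEMO/Jnk1 DKO group is 1 array with no spread of its own. Its counts in that setting are listed for completeness, and nothing is concluded from them.

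Of 96 differences of single members checked, 83 kept their sign in every setting, and the other 13 were at most 0.28 in size as labelled. With 1 array left out, the differences from WT in NEMO/Jnk1 DKO were -0.10 to 0.03 for Col5a3, -0.04 to 0.05 for Col8a1, -0.03 to 0.12 for Fn1 and -0.03 to 0.26 for Mfap5, and in NEMO/Jnk2 DKO -0.01 to 0 for Col5a3, -0.12 to 0.15 for Mfap5 and -0.24 to 0.52 for Postn. Against Jnk1 KO they were -0.21 to 0.06 for Lox and -0.29 to 0.01 for Col18a1, and against Jnk2 KO -0.14 to 0.52 for Lox, -0.73 to 0.14 for Postn and -0.46 to 0.65 for Thbs1. The term for the female pattern gave NEMO/Jnk1 DKO differences from WT of 0.17 for Col5a3, -0.17 for Col8a1 and -0.07 for Col12a1, and 0.02 for Col18a1 against Jnk1 KO. Without the 3 arrays of that pattern, and without the 2 arrays that stand apart and NEMO/Jnk1 DKO replicates 1 and 2, Col5a3 was at 0.08 and Col8a1 at -0.05. Col8a1 was at -0.01 after renewed quantile normalization and 0 after centring. Without the 2 arrays that stand apart, Lox was at 0.06 against Jnk1 KO and Thbs1 at 0.65 against Jnk2 KO, the latter also without NEMO/Jnk1 DKO replicates 1 and 2. The cause was not tested for any of these.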
